A study of Mus musculus with 2 samples.

Results

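Mir191 and Mir425 are 2 microRNA (miRNA) genes that lie next to each other on mouse chromosome 9, and their levels were measured by microRNA sequencing of hippocampus. They were found by their GENCODE M21 gene names, and both were present among the 2202 miRNA genes of the deposited tables. Both were detected, which here means 10 counts or more in each library, as were 445 of the 2202 genes. The study holds 1 group of 2 libraries, labelled layer of hippocampus, from male B6CASTF1/J mice aged 25 days, a hybrid of the strains C57BL/6J and CAST/EiJ. The labels name no treatment, transgene or other genotype. They give the libraries as biological replicates 1 and 2 with separate biosamples but a single donor entry, so the spread between them may be partly technical. With 1 group, the comparisons open to these data are those between genes and between the 2 libraries.

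A miRNA gene is transcribed as part of a longer RNA from which a hairpin is cut, and the hairpin yields short mature strands from its 5p and 3p arms. A mature strand guides Argonaute to messenger RNAs mainly through its seed, bases 2 to 8, and lowers their output. miR-191 and miR-425 are made together from 1 region in mammals and are found in most tissues. In hippocampal neurons miR-191 has been linked to the remodelling of dendritic spines in long-term depression, and in PCR assays it often serves as a reference miRNA against which others are scaled. The region lies at Dalrd3, which encodes a protein that takes part in the methylation of transfer RNA.

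The 4 mature strands are shown with the seed in capitals, because the seeds set which messages each strand can address. They come from RefSeq on GRCm38.p6, the same assembly as the mm10 build of the tables, and all lie on the plus strand of chromosome 9.
miR-191-5p: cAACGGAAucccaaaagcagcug
miR-191-3p: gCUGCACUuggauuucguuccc
miR-425-5p: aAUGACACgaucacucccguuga
miR-425-3p: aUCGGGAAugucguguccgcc
The first runs from base 108568325 to 108568347, the second from 108568367 to 108568388, the third from 108568789 to 108568811 and the last from 108568830 to 108568850. No seed occurs more than once among the 4 strands. Of the 1679 mature miRNA names in the RefSeq table, none outside the cluster has the seed of miR-191-5p, miR-191-3p or miR-425-3p. Such seeds are common, since 1211 of the 1398 seeds in the table belong to 1 name.

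The seed of miR-425-5p recurs in 1 other mature strand, miR-489-3p of the gene Mir489 on chromosome 6 (bases 3721922 to 3721944, minus strand), shown for comparison.
miR-425-5p: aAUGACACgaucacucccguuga
miR-489-3p: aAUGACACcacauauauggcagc
Beyond the seed the pair match at 4 of 15 positions. Mir489 had 0 counts in both libraries, which allows a level of 0.579 CPM (counts per 1000000 counts assigned to miRNA genes) in the first library and 0.511 CPM in the second. Of the 2 genes with this seed, Mir425 alone had counts.

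The hairpins place the strands, with both mature strands in capitals.
Mir191: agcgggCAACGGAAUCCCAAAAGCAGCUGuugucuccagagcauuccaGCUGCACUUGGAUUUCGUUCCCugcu
Mir425: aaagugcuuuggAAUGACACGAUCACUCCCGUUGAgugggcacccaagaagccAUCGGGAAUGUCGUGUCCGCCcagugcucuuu
Mir191 (ENSMUSG00000105497.1) spans 74 bases, from 108568319 to 108568392, and Mir425 (ENSMUSG00000065579.1) spans 85 bases, from 108568777 to 108568861. Between them lie 384 bases. The longest stretch that Mir191 shares with a miRNA gene elsewhere, on either strand, is 12 bases, and for Mir425 it is 13 bases. Both stretches are shorter than any of the 4 mature strands, so no annotated miRNA gene elsewhere carries a copy of one. The counts are given per gene and do not separate the 5p from the 3p strand.

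The 2 annotations differ on the gene that holds the hairpins. In RefSeq the gene Dalrd3 runs from 108567484 to 108572773 and contains both, with Mir191 starting 835 bases and Mir425 starting 1293 bases after its start. In GENCODE M21, which the counts used, Dalrd3 starts at 108569886, so that 1024 bases separate the end of Mir425 from it. There the hairpins lie in the long noncoding gene 4833445I07Rik (108567533 to 108569174, plus strand). One of its transcripts is a single exon that holds both hairpins. The other has 2 exons and carries Mir191 in the intron between them, 138 bases after one exon and 91 bases before the next, and it ends 2 bases before Mir425 begins. Whether the hairpins are called exonic or intronic thus depends on the transcript, and "in Dalrd3" holds for RefSeq but not for GENCODE M21.

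**Figure D1:**
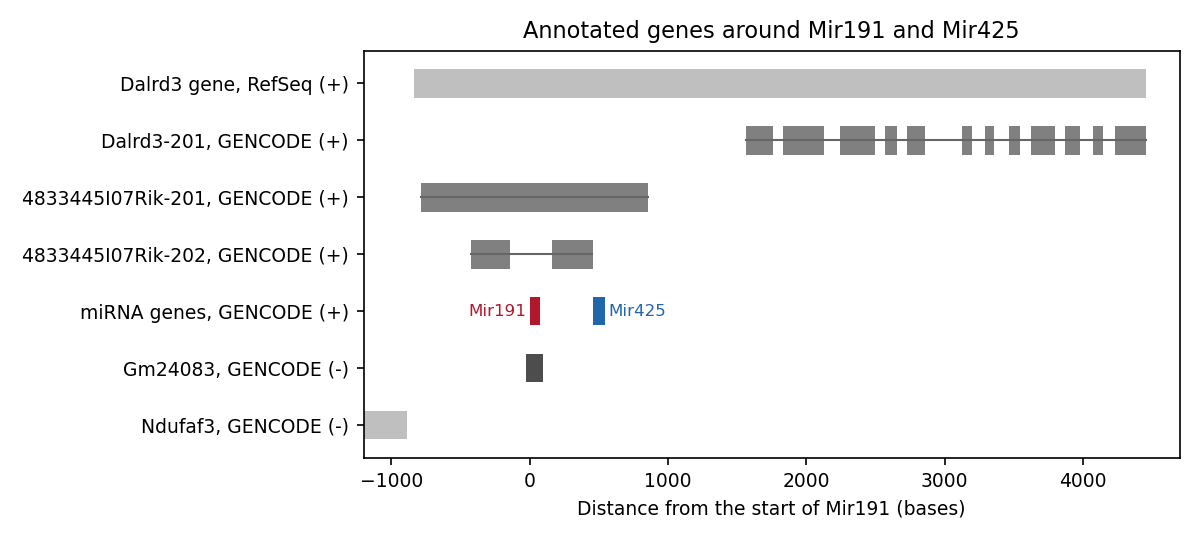
Annotated genes around the cluster, with the horizontal axis in bases from the start of Mir191, filled boxes for exons or gene spans and lines for introns. Mir191 and Mir425 lie inside the RefSeq span of Dalrd3 and inside the single exon of one 4833445I07Rik transcript, and before the first exon of Dalrd3 in GENCODE M21.

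The miRNA genes took 5183641 reads on their own strands in replicate 1 and 5871233 in replicate 2, which was 37.3% and 36.7% of their reads. Reads aligned to several places, 43.6% and 43.2% of reads, are in no gene's count. Of 11 neuron marker genes 8 were detected, led by Mir132 at 14669 and 19562 CPM. The list summed to 32606 CPM in replicate 1 and 34437 CPM in replicate 2. In the binomial test between the libraries given below, only Mir132 of the 8 was higher in replicate 2, beside 39.4% of all genes tested. Another 5 were higher in replicate 1, beside 20.3%, and 2 did not pass. The 8 had a median log2 difference of -0.32, replicate 2 minus replicate 1. The 3 neuron markers below the detection minimum were Mir9-2, Mir124a-3 and Mir124a-2. In that order they had 0.772 and 1.87 CPM, 0.386 and 1.53 CPM, and 0 and 0.170 CPM. Mir9, Mir124a, Mir128 and Mir138 each have more than 1 gene in the list, and all 5 markers higher in replicate 1 belong to these families. Genes with a near-identical copy elsewhere can lose reads to the class aligned to several places. Counts of such genes therefore do not give the level of the miRNA, and the sums and median of the neuron list share this limit. Of 7 markers of liver, muscle and islet, 3 were detected, namely Mir375, Mir206 and Mir122. The list summed to 345 CPM in replicate 1 and 369 CPM in replicate 2. Mir375 and Mir206 had means above the median of 51.2 CPM over the 445 detected genes. Another 3, Mir1a-1, Mir133a-1 and Mir133a-2, had no count in either library. Mir1a and Mir133a also have more than 1 gene in the list, so their low counts do not show that these miRNAs were absent.

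By gene-assigned reads, Mir191 was one of the abundant miRNA genes in these libraries and Mir425 stood an order of magnitude lower. Mir191 had 52695 counts in replicate 1 and 66167 in replicate 2, or 10166 CPM (95% exact interval 10079 to 10252) and 11270 CPM (11184 to 11355). Its mean was 10718 ± 781 CPM (SD, n = 2), or 1.07% of gene-assigned counts. Mir425 had 2967 and 5635 counts, or 572 CPM (552 to 593) and 960 CPM (935 to 985). Its mean was 766 ± 274 CPM (SD, n = 2), or 0.0766% of gene-assigned counts. Every value of Mir191 lay above every value of Mir425, and both genes were higher in replicate 2. Both means stood above the median of 51.2 CPM over the 445 detected genes. Together the cluster took 1.07% of gene-assigned counts in replicate 1 and 1.22% in replicate 2. Intervals cover counting error only, and in bulk tissue fewer expressing cells and less RNA per cell cannot be told apart.

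By mean CPM of gene-assigned reads, Mir191 ranked 18 and Mir425 ranked 112 of 2202 genes. Reads aligned to several places, 43.6% and 43.2% of reads, have no part in these ranks. Genes with a near-identical copy elsewhere can therefore rank too low. Mir191 ranked 17 in replicate 1 and 18 in replicate 2, a nearly constant place. Mir425 ranked 125 in replicate 1 and 107 in replicate 2.

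**Figure D2:**
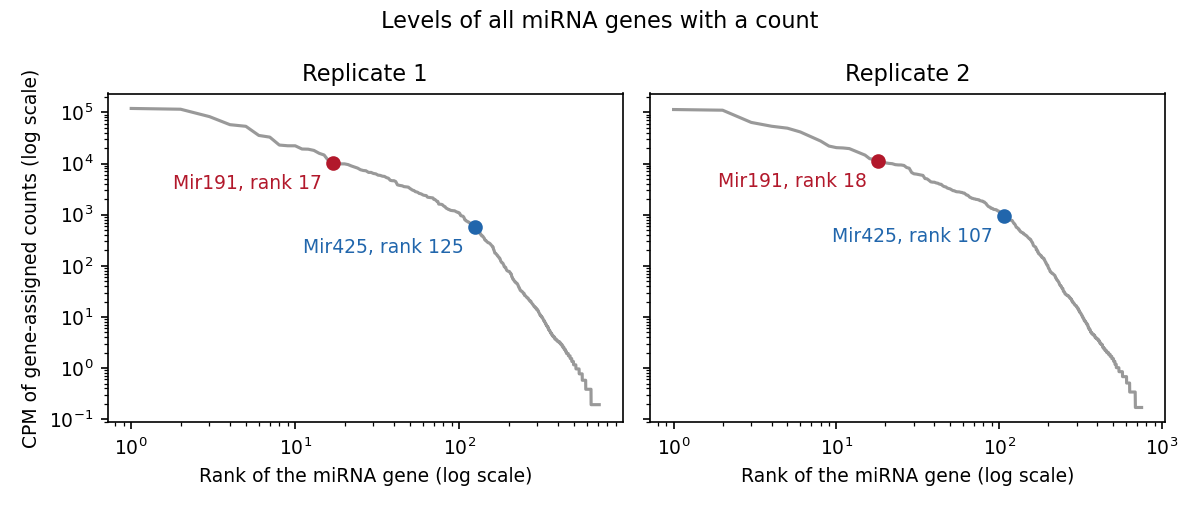
Level of each miRNA gene with a count against its rank, in CPM of gene-assigned counts, both axes logarithmic, 1 panel per library. Mir191 sits on the upper part of the curve in both panels, and Mir425 lies close to the bend where levels begin to drop steeply.

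The 3 genes ranked directly above Mir191 had no steady order against it. These were Mir382, an imprinted Dlk1-Dio3 miRNA, at 12210 ± 3351 CPM, Mir99b at 11683 ± 10416 CPM and Mir652 at 11212 ± 17.1 CPM (SD, n = 2). Each of them was above Mir191 in 1 library and below it in the other. Mir99b was far from Mir191 in both, at 19048 CPM in replicate 1 and 4319 CPM in replicate 2. The 3 genes directly below were lower than Mir191 in both libraries. Mir191 exceeded Mir324 by 730 ± 680 CPM (SD of the gap, n = 2), Mir330 by 804 ± 232 CPM and Mir151 by 840 ± 720 CPM. These gaps were not tested, since with 2 libraries the smallest 2-sided p of an exact paired permutation test is 0.5.

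Around Mir425 the order was less certain. Of its 6 nearest ranks only Mir497, a partner of Mir195a in another cluster, held the same side in both libraries, at 108 ± 107 CPM above it (SD of the gap, n = 2). Gm23450 at 814 ± 90.9 CPM, Mir31 at 783 ± 562 CPM, Mir28a at 762 ± 34.8 CPM, the neuronal Mir129-2 at 746 ± 63.6 CPM and Mir322 at 739 ± 44.0 CPM changed sides. Gm23450, Mir28a, Mir129-2 and Mir322 were above Mir425 in replicate 1 and below it in replicate 2, and Mir31 moved the other way.

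The genes nearest to each member in both libraries were found by the Euclidean distance of log2(CPM + 1) over 2 libraries, among the 291 genes that averaged 100 counts or more. For Mir191 they were Mir652 (distance 0.140), Mir330 (0.160) and Mir324 (0.168). For Mir425 they were Mir872 (0.161), at 596 and 865 CPM, Mir672 (0.284), at 618 and 800 CPM, and Mir673 (0.302), at 654 and 817 CPM. A distance over 2 libraries of 1 group mostly reflects level.

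Did the cluster differ between the libraries? Mir425 was 1.68-fold higher in replicate 2 than in replicate 1 (95% exact interval 1.60 to 1.75), a difference of 0.74 in log2(CPM + 1). Mir191 was 1.11-fold higher (1.10 to 1.12), a difference of 0.15. Exact binomial tests were run on 472 genes that averaged 10 counts or more, with Benjamini-Hochberg adjustment, and the adjusted p was 5.44e-119 for Mir425 and 3.23e-69 for Mir191. Both members passed, in a test that 59.7% of the genes tested passed, 39.4% as higher in replicate 2 and 20.3% as higher in replicate 1. Among genes within 2-fold of the member's mean level, 22 of 24 passed around Mir191 and 51 of 56 around Mir425. The test compares 2 libraries, takes each read as an independent molecule and holds no spread between samples.

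The size of the difference set the members apart from each other more than the test did. Of the 291 genes that averaged 100 counts or more, 22.7% differed less between the libraries than Mir191 and 81.4% differed less than Mir425, against a median absolute difference of 0.34. Among genes of like level, 15 of 24 differed more than Mir191, where the median absolute difference was 0.18. Around Mir425, 10 of 56 differed more, and the median was 0.32.

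The direction of Mir191 rested on the scaling. The 291 genes had a median difference of 0.17 in the direction of replicate 2 under scaling to the gene-assigned total, close to the 0.15 of Mir191. Under trimmed mean of M-values (TMM) scaling by edgeR, which shifts all differences by -0.14, Mir191 was at 0.01 with an adjusted binomial p of 0.239. Under DESeq2 size factors, which shift them by -0.18, it was at -0.03 with an adjusted binomial p of 0.00357, slightly higher in replicate 1. Mir425 stayed higher in replicate 2 under both, at 0.61 and 0.57.

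**Figure D3:**
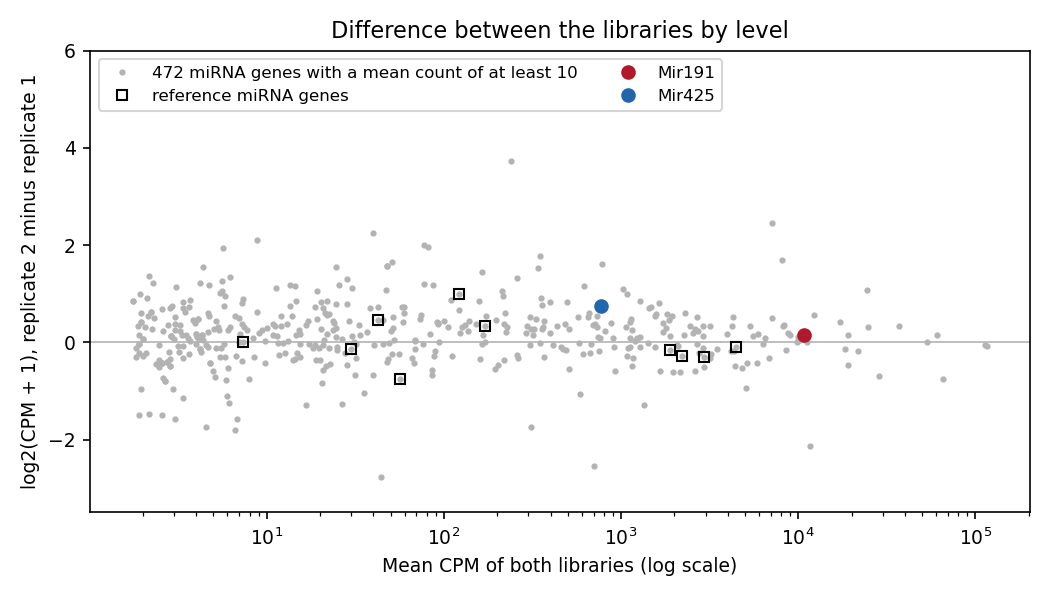
Difference of log2(CPM + 1), replicate 2 minus replicate 1, against mean CPM on a logarithmic axis for the 472 miRNA genes tested (grey points), with 10 reference miRNA genes as open squares. Mir191 lies at 0.15, near 0, and Mir425 at 0.74, in the upper part of the genes at its level.

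Mir191 was set beside 10 other genes of miRNAs that are often used as references in PCR assays, all of which were detected. Mir191 stood above every one of them in mean level, and the highest was Mir361 at 4458 ± 215 CPM (SD, n = 2). In the binomial test 3 of the 10 were higher in replicate 2, beside 39.4% of all genes tested, 5 were higher in replicate 1, beside 20.3%, and 2 did not pass. The list had a median difference of -0.11, beside 0.16 over all 472 genes tested, and a range from -0.75 (Mir16-2) to 1.00 (Mir186). Under DESeq2 size factors 2 were higher in replicate 2 and 5 in replicate 1. Mir361 had 4610 and 4306 CPM (a difference of -0.10), Mir423 had 3262 and 2650 CPM (-0.30), Mir93 had 2434 and 1989 CPM (-0.29) and Mir484 had 1990 and 1777 CPM (-0.16). These 4 highest genes of the list were lower in replicate 2, whereas Mir191 was higher there under the same scaling. Mir103-1, Mir103-2, Mir16-1 and Mir16-2 each have a near-identical copy at another locus, so their counts are uncertain.

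How constant was the balance within the cluster? The ratio of Mir191 to Mir425 counts does not depend on how the libraries are scaled. Replicate 1 had a ratio of 17.8, with an exact 95% interval from 17.1 to 18.4. Replicate 2 had 11.7, with an interval from 11.4 to 12.1. The mean was 14.8 ± 4.26 (SD, n = 2). In other terms, Mir425 gave 5.33% of the cluster's reads in replicate 1 and 7.85% in replicate 2. The intervals of the libraries do not overlap. The ratio was 1.51-fold higher in replicate 1 (1.44 to 1.58), with a p of 5.14e-72 in a 2-sided Fisher's exact test of the counts, which covers counting error only. Reads under 30 bases, the size range in the labels, span about 1 mature strand, so counts were not divided by length. Divided by hairpin length, the ratio was 20.4 and 13.5.

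To show how large such a shift is here, the pair was set beside all clusters of exactly 2 miRNA genes on 1 strand with starts at most 1000 bases apart. The annotation holds 55 such clusters, and in 28 of them both genes were detected. From replicate 1 to replicate 2 the log2 ratio of Mir191 to Mir425 went from 4.15 to 3.55, a change of -0.60, against a median absolute change of 0.56 over the 28 clusters and a range from 0.01 to 1.79. A larger change was seen in 12 clusters. The widest were Mir298 with Mir296, whose ratio went from 3.31 to 11.5, and Mir15b with Mir16-2, from 3.71 to 10.7. The steadiest abundant pair was Mir221 with Mir222, at 5.12 and 5.01. A larger imbalance between the 2 genes than that of Mir191 and Mir425 was seen in 10 clusters. Examples were Mir29a with Mir29b-1 at 117 and 78.8 and the activity-regulated Mir132 with Mir212 at 29.7 and 43.4. Mir29b-1 and Mir16-2 each have a counterpart at another locus, Mir29b-2 and Mir16-1, so the ratios of their clusters are uncertain. In 14 of the 28 clusters at least 1 gene shares 20 bases with a miRNA gene elsewhere and can lose reads to the class aligned to several places. Among the other 14 clusters, which include Mir191 and Mir425, 6 had a larger change and 5 had a larger imbalance.

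**Figure D4:**
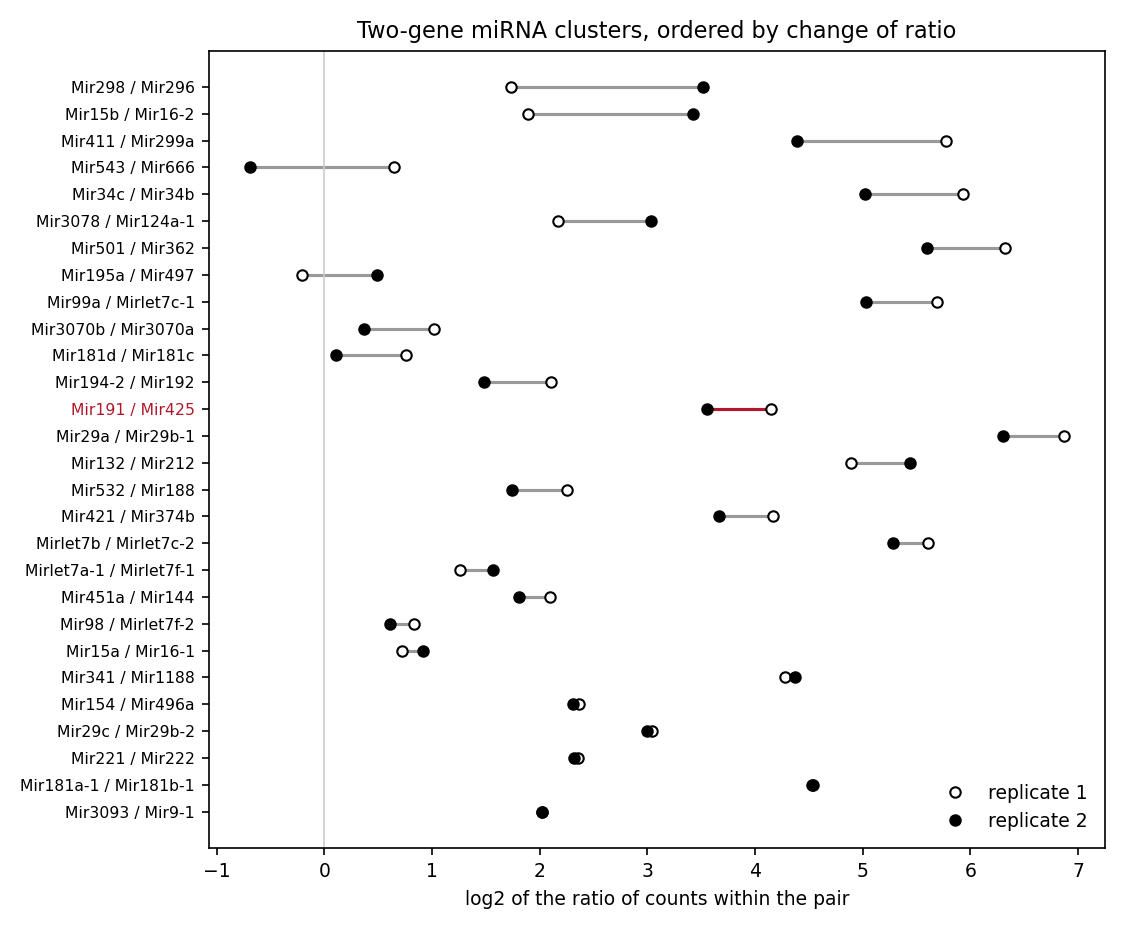
Log2 ratio of counts of the higher to the lower gene in each of 28 clusters of 2 miRNA genes, with open circles for replicate 1 and filled circles for replicate 2, ordered by the size of the change. The pair of Mir191 and Mir425 (red) moves from 4.15 to 3.55 and stands near the middle of the order.

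The strand of the reads decided whether Mir191 was counted at all. GENCODE M21 places a further miRNA gene, Gm24083 (ENSMUSG00000092915.1), on the minus strand from 108568295 to 108568414. Its 120 bases contain the reverse complement of the whole Mir191 hairpin with 24 bases more on one side and 22 on the other. On its own strand Gm24083 had 0 counts in both libraries. On the strand opposite to it, the plus strand, it had 52695 and 66167 counts, equal to the counts of Mir191. Mir191 itself had 0 counts on its other strand in both libraries. In the column that ignores strand, Mir191 and Gm24083 both had 0 counts in both libraries, and reads over the pair are held as ambiguous. Mir425, which no miRNA gene overlaps, had 2967 and 5635 counts with and without regard to strand, and 0 on its other strand.

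**Figure D5:**
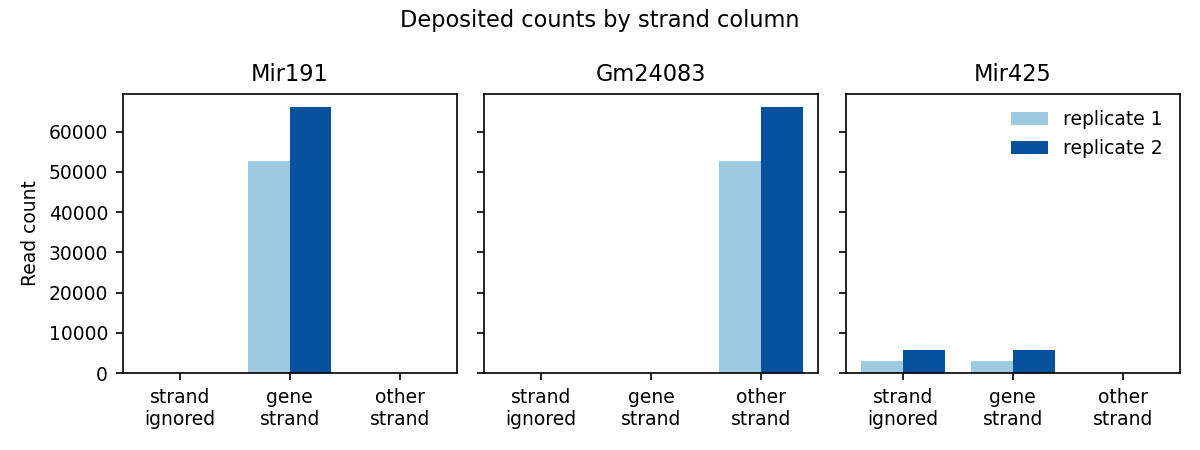
Deposited read counts of Mir191, Gm24083 and Mir425 in the 3 count columns, on a linear axis from 0, with light bars for replicate 1 and dark bars for replicate 2. The bars of Mir191 on the gene strand recur at the same height as those of Gm24083 on its other strand, and neither gene has a bar where strand is ignored.

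Among 32 such pairs of miRNA genes that overlap on opposite strands, the count of Mir191 was the second highest in both libraries, after Mirlet7e over Gm25927. It amounted to 17.4% of the ambiguous reads of the column that ignores strand in replicate 1, 52695 of 302690, and to 17.1% in replicate 2, 66167 of 387518. In 25 pairs the more abundant gene was detected, and in 22 of these it had 0 counts in both libraries when strand was ignored.

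Because both miRNAs are also abundant in blood cells, markers of blood were read beside the cluster. Of 4 red blood cell genes, 3 were in the tables and all 3 were detected. They summed to 41.9 CPM in replicate 1 and 56.9 CPM in replicate 2. The cluster had 10738 and 12229 CPM, mostly from Mir191, and Mir425 alone had 572 and 960 CPM. Mir451a, a red cell miRNA cut without Dicer, had 17.4 and 26.2 CPM, Mir144 had 4.05 and 7.49 CPM, and Mir486 had 20.4 and 23.2 CPM. In the binomial test 2 of the 3, Mir451a and Mir144, were higher in replicate 2, as were 39.4% of all genes tested, and 1 of the 3 under TMM or DESeq2 scaling. The 5 leukocyte genes summed to 1273 and 1021 CPM, mostly from Mir150 at 1183 and 966 CPM. This sum was above Mir425 and below Mir191 in both libraries. Of the 4 leukocyte genes tested, 2 were higher in replicate 1, beside 20.3% of all genes tested, and none of the 4 passed in the other direction. Under TMM and DESeq2 scaling all 4 were higher in replicate 1, beside 124 and 139 of all 472 genes. Mir142b had no count in either library. The red cell sum was thus higher in the library with more Mir425 and the leukocyte sum was lower there, and their part in the levels of the cluster was not tested.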

How the data were processed

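For each library the authors deposited unnormalised read counts of miRNA genes, with mm10 and GENCODE M21 per the text files deposited with them. The aligner is not given in the sources used here, nor is the counter. Each table has 3 count columns (strand ignored, strand of the gene, other strand) and 4 rows that name no gene. These rows, among them the 43.6% and 43.2% of reads aligned to several places, were left out of totals and tests. All 2202 gene identifiers matched GENCODE M21.

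Counts on the gene's strand were scaled to CPM, and log2 values carry a pseudocount of 1. With 1 group no quasi-likelihood fit has a contrast. The 2 libraries were therefore compared per gene with exact binomial tests (scipy 1.17.1) and Benjamini-Hochberg adjustment at 0.05, over genes that averaged 10 counts or more. The test's code was run on simulated data in which read sampling was the only noise, which says nothing of the spread between samples. edgeR 4.0.16 (TMM) and DESeq2 1.42.0 (size factors) under R 4.3.3 gave other scalings of the same test. Intervals are exact Clopper-Pearson or exact conditional intervals at 95%. Since the labels mention no molecular identifiers, intervals and the limit of 3 counts for a count of 0 cover counting error only.

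Named genes were the members, overlapping genes, the 3 nearest ranks on each side, the 3 nearest genes by distance, clusters of 2 genes, genes sharing a seed, and the reference and marker lists. The members and lists were chosen with earlier results of these data known.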

Additional observations from a re-analysis of the deposited data

How the results depend on the processing

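Mir425 was higher in replicate 2 under every scaling, filter, pseudocount and count column tried, at 0.57 to 0.76 in log2. Mir191 was higher at 0.15 under other filters and pseudocounts, at 0.01 with TMM and reversed at -0.03 with DESeq2 size factors. These scalings called 275 (151 higher in replicate 2, 124 in replicate 1) and 277 genes (138 and 139) against 282 (186 and 96), the last split resting on the median shift. Ignoring strand gave a level of 0 CPM for Mir191 and a ratio of 0 to Mir425, by its overlap with Gm24083, and left no difference of Mir191 to compute. With reads aligned to several places in the total, Mir191 was at 4932 CPM and Mir425 at 352 CPM, from the larger total. In single libraries Mir191 ranged from 10166 to 11270 CPM (ranks 17 to 18), Mir425 from 572 to 960 CPM (ranks 107 to 125) and their ratio from 11.7 to 17.8. A larger change of ratio was seen in 10 of 28 clusters within 10000 bases, in 7 of 21 within 500 bases, in 7 of 20 with at least 100 counts and in 6 of 14 without shared stretches, the last chosen after seeing the data, with fewer clusters compared in the last 3. No paired analysis was possible because the study has 1 group. With at least 2967 counts per library, depth did not limit either member.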
